A study of Homo sapiens with 4 samples.

Results

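Promoters that were open only with p63 are 1740 regions of the p63 peak list. They were selected by their measured values: the −log10 q had to reach 10 and the fold enrichment 3 in the p63 list, no peak of any strength in the control list could overlap, and the summit had to lie no more than 3 kb from any annotated transcription start site (TSS) on chromosomes 1 to 22 and X. Fold enrichment is the ratio of the read pileup at the summit to the local background, with 1 added to each. The −log10 q is the peak caller's measure of confidence. The p63 list held 112294 peaks in all, of which 24476 were promoter peaks at these thresholds, so the members were 7.11% of the promoter peaks. Of 7443 regions at these thresholds that were absent from the control list, 23.4% lay at promoters. The p63 list had 62233 peaks at the −log10 q threshold on these chromosomes, of which the 24476 were promoter peaks. Promoters were thus a smaller share of the absent regions than of all peaks.

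Accessible chromatin was mapped by ATAC-seq, an assay based on insertion of sequencing adapters into open DNA by a transposase. The cells were BJ, a human fibroblast line. The 4 samples formed 2 groups of 2. Control cells (CTR) carried a reverse tetracycline transactivator and a doxycycline-inducible retroviral construct for KLF4, and the other cells (p63) carried the same transactivator with a construct for ΔNp63α and KLF4 joined by a self-cleaving peptide, so that doxycycline and KLF4 were common to both groups. Both lines were polyclonal, and per the study's methods the replicates were repeated inductions of the same lines, from which the authors called 1 pooled peak list per group. No spread between replicates could therefore be given, and all intervals below are 95% Wilson intervals that cover counting error only. In a bulk assay, opening in more cells and wider opening in each cell cannot be told apart. The canonical TSS was open in the CTR list for 30 of 40 listed fibroblast genes, 11 of 40 keratinocyte genes, 8 of 35 epithelial adhesion and transcription factor genes, 35 of 41 p53-family target genes, 5 of 20 neuronal genes, 1 of 20 blood cell genes and 2 of 12 melanocyte genes, with COL1A2, FN1 and VIM among the open fibroblast genes. In the p63 list the counts were 32, 11, 8, 36, 5, 0 and 2, in the same order. For comparison, the canonical TSS was open in both lists for 56.6% of protein-coding genes with a member and 57.3% of those without.

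p63 is a transcription factor of the p53 family and a regulator of stratified epithelia such as the epidermis. ΔNp63α, its main form in basal keratinocytes, lacks the N-terminal transactivation domain of the longer isoform and binds as a tetramer to a site made of a pair of decamers, each with a C and a G around a central pair of bases. KLF4 is a zinc finger factor of skin barrier formation, and the combination of p63 and KLF4 is used to convert fibroblasts into keratinocyte-like cells. Promoters are often rich in CpG and open in most cell types, whereas internal TSSs and distal elements differ more between cell types.

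The p63 site was searched as a string of 20 bases in which the C and G of each core had to match and up to 3 of the remaining 16 positions could differ, wholly within 100 bp of the summit. Each decamer consists of purines, a core of C, A or T bases and G, and pyrimidines. The strongest member with a site free of mismatches lay 614 bp upstream of an internal TSS of NDUFAF5, which encodes an assembly factor of mitochondrial complex I. Its window is shown whole, on the plus strand of GRCh38 with the site in capitals, because it gives the whole context of a site at a strong member.
NDUFAF5 chr20:13800829-13801029: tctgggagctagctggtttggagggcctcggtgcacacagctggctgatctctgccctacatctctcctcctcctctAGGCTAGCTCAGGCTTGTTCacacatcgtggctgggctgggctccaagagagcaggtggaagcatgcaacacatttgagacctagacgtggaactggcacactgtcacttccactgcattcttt

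Further members with sites of 0 mismatches are shown with 20 bases on either side, so that the pattern of the site can be read against its surroundings, except PTCHD4 and HNRNPA1L3, for which the site alone is given. The other 2 of the 12 members with such a site are not printed here.
RALGAPA2 chr20:20603558-20603617: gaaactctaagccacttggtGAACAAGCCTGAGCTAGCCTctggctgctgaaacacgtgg
LINC01455 chr5:79938700-79938759: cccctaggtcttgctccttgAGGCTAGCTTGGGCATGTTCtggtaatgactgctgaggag
ITGAM chr16:31273906-31273965: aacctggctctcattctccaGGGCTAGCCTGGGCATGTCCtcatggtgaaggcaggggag
ARID1B chr6:157030226-157030285: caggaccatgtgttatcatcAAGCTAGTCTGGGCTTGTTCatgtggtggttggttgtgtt
ENSG00000283234 chr1:21955988-21956047: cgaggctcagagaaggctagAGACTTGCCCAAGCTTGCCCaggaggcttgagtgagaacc
RPL5P35 chr22:49760446-49760505: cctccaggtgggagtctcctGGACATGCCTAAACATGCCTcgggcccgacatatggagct
TM4SF19-AS1 chr3:196320222-196320281: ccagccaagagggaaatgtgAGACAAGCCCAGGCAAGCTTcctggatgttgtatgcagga
PTCHD4 chr6:48111198-48111217: GGGCAAGTCTGGGCAAGCCT
HNRNPA1L3 chr16:51553486-51553505: AGACATGCCCAGACTAGCTC

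The next sites belong to members at genes that recur below. IGFBP2 and TMPRSS4 had 1 mismatch, TEX45, TP73, RNASE7, TGM3, LGALS7 and APOBEC3H had 2, and KRT5 and KRT17 had 3. TP73, RNASE7, TGM3, APOBEC3H, TMPRSS4, LGALS7, KRT5 and KRT17 were added to the printed set after their values were seen.
IGFBP2 chr2:216659505-216659564: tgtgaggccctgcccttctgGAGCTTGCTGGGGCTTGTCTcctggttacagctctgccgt
TMPRSS4 chr11:118093101-118093160: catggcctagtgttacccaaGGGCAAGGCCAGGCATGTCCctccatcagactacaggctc
TEX45 chr19:7494789-7494848: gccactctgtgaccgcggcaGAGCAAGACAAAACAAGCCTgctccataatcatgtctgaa
TP73 chr1:3681205-3681264: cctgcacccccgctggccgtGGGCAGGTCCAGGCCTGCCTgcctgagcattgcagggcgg
RNASE7 chr14:21042166-21042225: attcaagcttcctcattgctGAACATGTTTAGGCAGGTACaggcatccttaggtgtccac
TGM3 chr20:2296327-2296386: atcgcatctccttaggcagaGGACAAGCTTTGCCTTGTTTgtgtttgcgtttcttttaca
LGALS7 chr19:38775598-38775657: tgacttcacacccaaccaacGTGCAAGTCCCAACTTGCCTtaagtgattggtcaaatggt
KRT5 chr12:52522894-52522953: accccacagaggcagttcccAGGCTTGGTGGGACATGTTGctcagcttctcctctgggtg
KRT17 chr17:41621268-41621327: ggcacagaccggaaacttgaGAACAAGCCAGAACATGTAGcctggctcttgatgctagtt
APOBEC3H chr22:39097291-39097310: AGACAAGCAGGGGCAAGTCT

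A p63 site was found in 318 of the 1740 members, or 18.3% (16.5 to 20.2%). With at most 2 or 4 mismatches the share was 7.01% or 34.3%, and with CTR peaks under the threshold ignored it was 10.4% of 3862 regions. The windows 2 kb to either side of the same summits held a site in 1.24% of cases, and promoters open in both lists did so in 1.24% of 20614 (1.09 to 1.4%). The difference between members and promoters open in both was 17 percentage points, with a Newcombe interval of 15.3 to 18.9 for counting error. It stayed at 16.8 when the shared promoters were weighted to the GC content of the members, at 17.3 when they were weighted to their −log10 q and at 16.6 when they were weighted to their TSS distance. Windows of the same length at the canonical TSSs of all protein-coding genes held a site in 0.621%. The share was higher in members than in shared promoters on 23 of 23 chromosomes, and ranged from 4.17% on chromosome 21, with 24 members, to 42.4% on chromosome 13, with 33 members.

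The site share in members was near that in p63-only regions away from promoters. Gene bodies absent from the CTR list had a site in 18.8% of 3608 regions and intergenic regions in 19.2% of 2095. The share in members minus that in gene bodies was −0.488 percentage points (−2.67 to 1.77), and minus that in intergenic regions −0.96 (−3.43 to 1.53). Promoters with a CTR peak below the threshold, here called weak in CTR, had a site in 4.01% of 2122. Under the mirrored rule, 405 of 22839 CTR promoter peaks, or 1.77%, were absent from the p63 list, and 2 of these 405 had a site (0.494%).

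**Figure D1:**
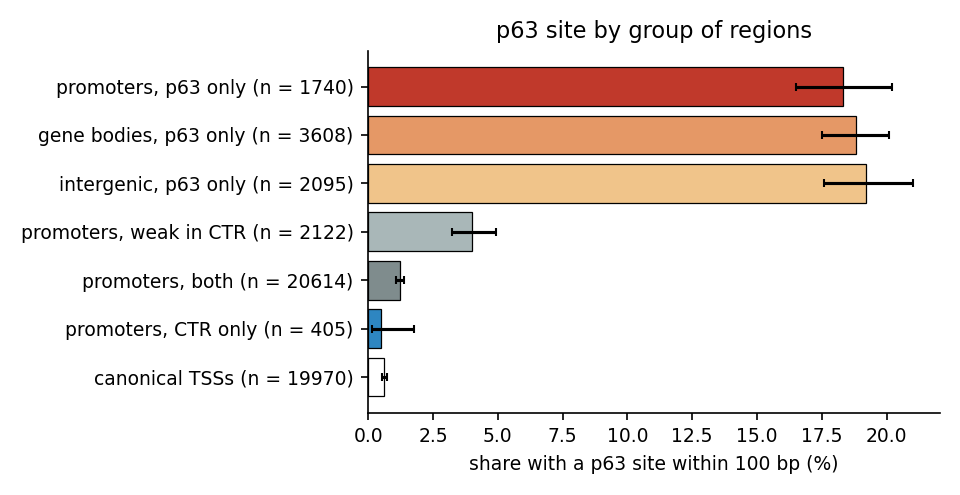
Share of regions with a p63 site within 100 bp of the summit, in percent, for 7 groups of windows; bars show the share and whiskers its 95% Wilson interval. The 3 p63-only groups sit between 18.3% and 19.2%, and promoters open in both lists at 1.24%.

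Closeness to the full site went with absence from the CTR list. Among all promoter peaks of the p63 list, 12 of 17 with a site of 0 mismatches were members (70.6%, 46.9 to 86.7%). Peaks with 1 mismatch were members in 59.5% of cases, and the shares for 2, 3, 4 and 5 mismatches were 59.9%, 42.9%, 29.3% and 15.8%. The share was 3% for peaks whose best site had 7 or more mismatches, under the 7.11% over all promoter peaks. The site share was 14% in the 394 members with the lowest −log10 q and 25.5% in the 435 with the highest. A pair of cores CATG, the core that p53-family proteins bind best, was present in 11.9% of the 318 sites in members (8.83 to 16%) and in 6.67% of the 255 sites in shared promoters (4.2 to 10.4%).

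Most sites in members lay beside the summit. The centre of the site was 20 to 40 bp from the summit in 170 of 318 sites (53.5%, 48 to 58.9%) and under 20 bp in 41. An even spread over the 90 bp searched would put 22.2% in a stretch of 20 bp. Gene bodies and intergenic regions absent from CTR had 50.8% and 50.4% of their sites 20 to 40 bp from the summit, whereas promoters open in both had 32.9% (27.5 to 38.9%). The site lay on the side of the lower coordinates in 45.3% of cases (39.9 to 50.8%), so neither side prevailed beyond the counting interval. How reads were shifted for the transposase was not given in the sources used here, and a shift moves the summit.

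**Figure D2:**
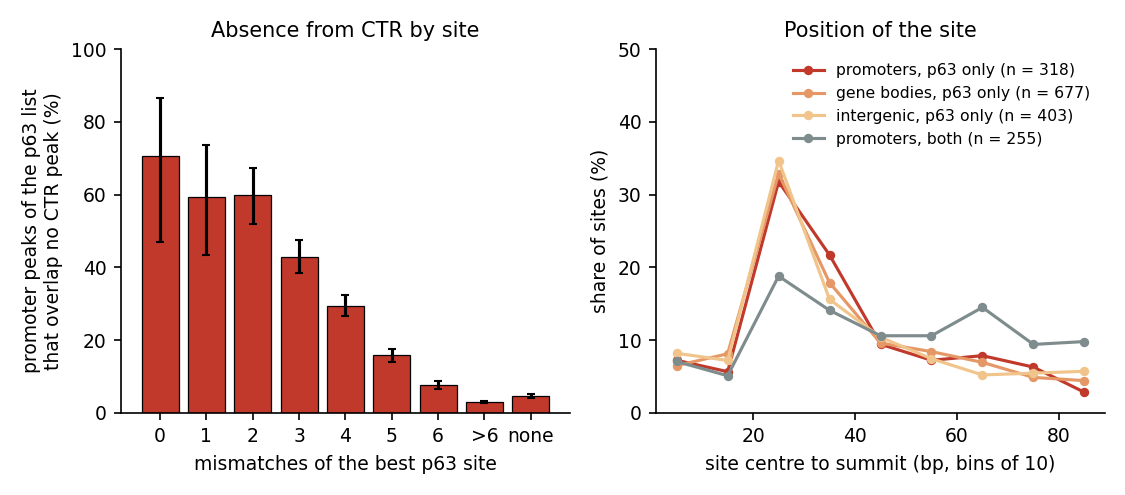
Left, share in percent of promoter peaks of the p63 list that overlap no CTR peak, by the mismatches of their best p63 site, with 95% Wilson intervals; it falls from 70.6% at 0 mismatches to 3% above 6. Right, share of sites by the distance of their centre from the summit in bins of 10 bp; in members 31.8% lie in the bin from 20 to 30 bp.

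The members were weaker and narrower than promoters open in both lists, which the rule itself favours, and these values are given as a description. Their fold enrichment had a median of 7.99 with quartiles of 6.67 and 9.76, against a median of 10.3 in shared promoters. The median −log10 q was 15 against 35 and the median width 372 bp against 775 bp. The pileup at the summit, solved from the fold enrichment and the deposited p, ranged from 15 to 97 reads with a median of 25, against a median of 53 in shared promoters. The lowest pileup among the 2000 weakest peaks of the CTR list was 6 reads, so absence from that list is not a measured 0. The nearest CTR peak was 4576 bp away at the median, 79 members had one within 500 bp, and 456 had none within 10 kb. The closest was 1 bp from the member near RRAD, a Ras-related GTPase gene.

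At the thresholds, the members just inside had a −log10 q of 10.006 (near RNU1-32P and ENSG00000242261) and 10.007 (near ENSG00000223393), and the regions just outside had 9.999 (near MIRLET7A3), 9.987 (near MYOSLID) and 9.985 (near HSPB7). By distance, RNF216 and CCDC197 were inside at 2989 bp and ENSG00000236842 at 2988 bp, and C7, STARD8 and SCP2D1-AS1 were outside at 3008, 3009 and 3016 bp. By fold enrichment, ENSG00000286252, CIC and TNK2-AS1 were inside at 3.136, 3.170 and 3.220. A single region was left out by fold enrichment, at the mitochondrial pseudogene MTCO1P12, with 1.608 and a −log10 q of 93.852.

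The members were seldom at the TSS itself. Their summits lay 1298 bp from the nearest TSS at the median, against 147 bp in promoters open in both. The median was 1199 bp in the 405 CTR-only promoters of the mirrored rule and 876 bp in promoters weak in CTR. Of the members, 9.43% were within 100 bp, 23.9% within 500 bp (22 to 26%) and 39.4% within 1000 bp of a TSS. The same shares were 41.6%, 68.2% and 76.9% in shared promoters. Among all bases that lie within 3 kb of a TSS, 5.57%, 22.5% and 40.8% were this close, and all such bases made up 17% of the chromosomes analysed. At 500 and 1000 bp the members were near these shares. Closer in they were above them, with 9.43% against 5.57% within 100 bp and 16.4% (14.7 to 18.2%) against 12.4% within 250 bp. The summit lay upstream of the nearest TSS in 50.6% of members (48.2 to 52.9%). Within 500 bp of a TSS lay 25.7% of CTR-only promoters and 38.7% of promoters weak in CTR.

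**Figure D3:**
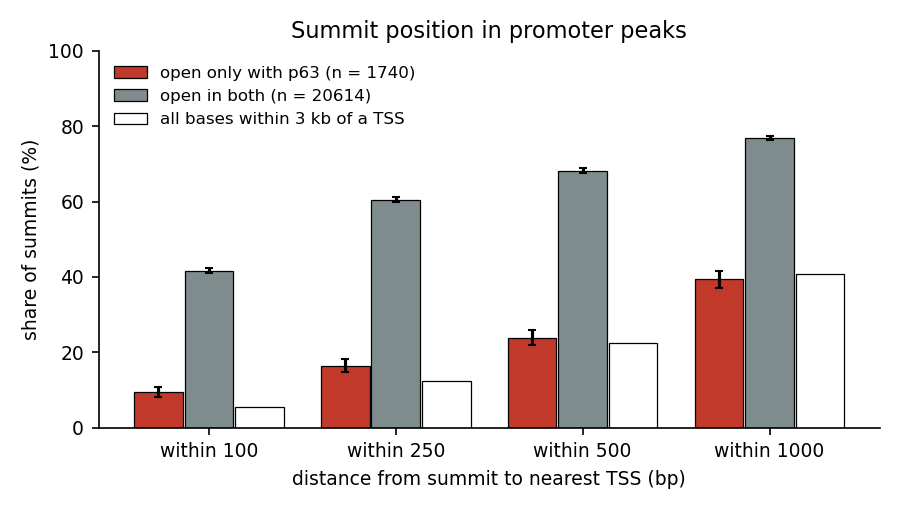
Share of summits in percent within 100, 250, 500 and 1000 bp of the nearest TSS for members, for promoters open in both lists and for all bases within 3 kb of a TSS; whiskers are 95% Wilson intervals. Members reach 23.9% within 500 bp, near the 22.5% of all bases, and shared promoters 68.2%. Within 100 bp members reach 9.43%, above the 5.57% of all bases.

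Canonical TSSs of protein-coding genes were nearest less often in members than in promoters open in both. They were nearest for 139 members (7.99%, 6.81 to 9.36%), other TSSs of such genes for 892 (51.3%), long non-coding RNAs for 395 (22.7%) and other gene types for 314. In shared promoters the canonical TSS was nearest in 19.8% and another TSS of a protein-coding gene in 52.6%, and the latter share lay within the interval of the members (48.9 to 53.6%). The canonical TSS was nearest in 4.69% of CTR-only promoters and 10.8% of promoters weak in CTR. With the transcripts of the GENCODE basic set alone, the rule selected 1116 regions instead of the members. The nearest TSS belonged to a protein-coding gene in 37.6% of these, against 59.3% of the members with all transcripts. The summit lay in an intron in 62.1% of members and outside genes in 19.3%, against 40.5% and 22.7% in shared promoters, and in a UTR in 5% against 20.3%. The site share was 13.7% at canonical TSSs (8.93 to 20.4%), 18.3% at other TSSs of protein-coding genes and 19.5% at long non-coding RNAs. Within 250 bp of a TSS it was 21.8% in members and 0.915% in shared promoters.

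Most members lacked the base composition of CpG island promoters. Within 100 bp of the summit the GC content had a median of 51.2%, against 60.7% in promoters open in both, 66.7% at canonical TSSs and 49.3% in p63-only gene bodies. The ratio of observed to expected CpG, which is near 1 in CpG islands, had a median of 0.178 in members, 0.661 in shared promoters and 0.152 in p63-only gene bodies. A GC content of 60% or more together with a CpG ratio of 0.6 or more was found in 20 members (1.15%, 0.745 to 1.77%) and in 44.3% of shared promoters. The median GC content was lower in members than in shared promoters on 23 of 23 chromosomes. CTR-only promoters had a median GC content of 46.3% and a median CpG ratio of 0.217. Promoters weak in CTR had 53.2% and 0.248.

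**Figure D4:**
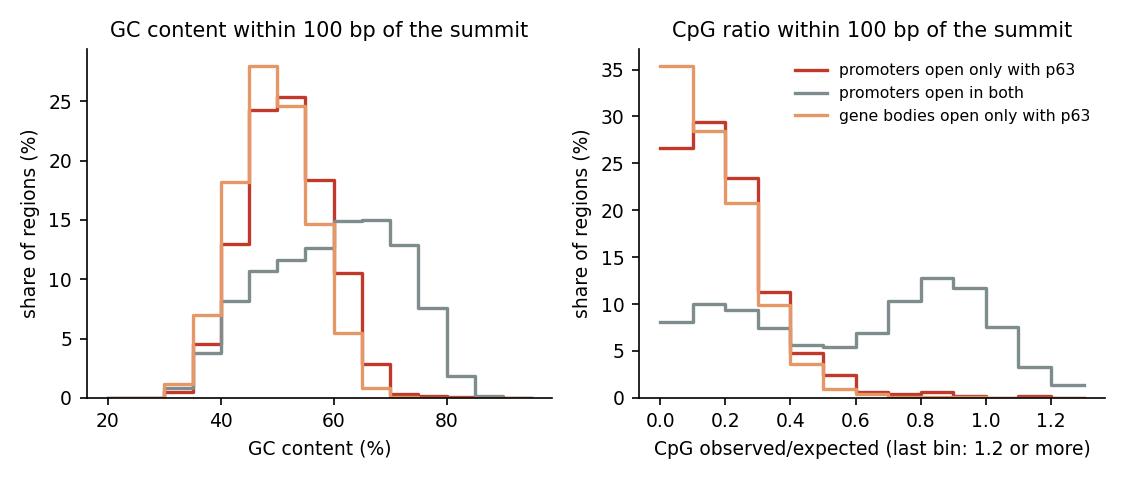
Distribution of GC content (left, bins of 5%) and of the CpG observed/expected ratio (right, bins of 0.1) within 100 bp of the summit, in percent of regions. Members follow the p63-only gene bodies, with median ratios of 0.178 and 0.152, and shared promoters have a second mode at higher ratios and a median of 0.661.

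Sequence motifs of other factors were counted in the same windows of 201 bases, on both strands and with no mismatch unless stated, and none of the strings contains another, though matches may overlap. AP-1 (TGACTCA, whose reverse complement is TGAGTCA) was present in 17.1% of members, against 3.16% of the windows beside them, 15.1% of shared promoters (24.5% when weighted to the GC content of members) and 15.8% of all promoter peaks of the p63 list. TEAD (CATTCC) was present in 17.1%, against 10.9% beside, 12.8% in shared promoters (17.8% weighted) and 13.4% of all promoter peaks. KLF (GGGNGTGGC), the motif of the factor that both groups expressed, was present in 2.93% of members, 1.44% of the windows beside and 4.13% of shared promoters (2.56% weighted), with 3.95% over all promoter peaks. RUNX (TGTGGTT) was in 5.57% of members (4.59 to 6.75%), 3.79% of the windows beside, 4.03% of shared promoters (6.15% weighted) and 4.17% of all promoter peaks.

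Motifs of housekeeping promoters were less frequent in members than in shared promoters. SP (GGGCGG) was present in 9.66% of members, 40.6% of shared promoters (18.9% weighted to GC), 36.3% of all promoter peaks and 53.7% of canonical TSSs. ETS (CCGGAAG) was present in 0.632%, 8.33% (4.82% weighted), 7.21% and 11.2% of these, and the CCAAT box (CCAATCA) in 1.09%, 4.98% (4.73% weighted), 4.47% and 5.87%. In CTR-only promoters SP, ETS and the CCAAT box were in 5.93%, 1.73% and 2.96%. In promoters weak in CTR they were in 16.8%, 1.7% and 2.26%. AP-2 (GCCNNNGGC) was in 9.94% of members and 19.1% of shared promoters, but in 10.8% once these were weighted to GC, with 17.8% over all promoter peaks. The TATA box (TATAAA) was in 5.98% of members, 12.6% of the windows beside, 4.46% of shared promoters (6.52% weighted) and 4.74% of all promoter peaks. The CTCF motif, with at most 1 mismatch, was in 4.94% of members, 7.57% of shared promoters (8.51% weighted), 7.63% of all promoter peaks and 22.5% of the CTR-only promoters. The windows beside members held CTCF in 1.03%, SP in 7.39%, AP-2 in 6.67%, ETS in 0.92% and the CCAAT box in 1.72%. GRHL (AACCGGTT), a palindrome bound by grainyhead-like factors of epithelia, was in 0 of 1740 members, which allows a share of up to 0.22%, in 0.0922% of shared promoters (0.108% weighted) and in 0.0817% of all promoter peaks.

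Of 19970 protein-coding genes, 1073 had a member within 3 kb of a TSS, which is 5.37%. The share was higher in genes with more annotated TSSs: it was 2.15% for genes with 1 to 2 TSS positions, 4.11% with 3 to 5, 5.91% with 6 to 10 and 9.89% with 11 or more, and the median was 9 positions in genes with a member and 5 in the others. Most of these genes had a single member (1010), 54 had 2, 8 had 3 and 1 had 4. The canonical TSS of 607 of the 1073 genes had a peak at the threshold in both lists (56.6%, 53.6 to 59.5%), and the share was 57.3% in genes without a member. With the basic set alone it was 41.6% (37.3 to 46.1%) of the genes at the 1116 regions then selected. The other genes were not counted for that set. In 374 genes (34.9%) it had a peak at the threshold in neither list, against 39.5% of genes without a member.

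A member within 500 bp of the canonical TSS was found at 48 genes, in 47 regions (2.7% of members), of which 7 had a p63 site (14.9%, 7.41 to 27.7%). Their median GC content was 55.2% and their median CpG ratio 0.183. The genes named here were picked by hand after their values were seen and do not describe the 48 as a group. LCE3E and LCE1C, late cornified envelope genes, had members with summits 68 bp and 45 bp upstream of the TSS, with fold enrichments of 13.6 and 9.1. TGM3, a transglutaminase that crosslinks the cornified envelope, had a member 335 bp downstream with a fold enrichment of 9.35 and the site of 2 mismatches shown above. EVPL, which encodes envoplakin, and the keratin gene KRT24 had members 234 bp upstream and 4 bp downstream with fold enrichments of 6.55 and 9.86. GJB5 and GJA1, connexin genes, had fold enrichments of 7.46 and 5.23. The members at LCE3E, LCE1C, EVPL, KRT24, GJB5 and GJA1 had no site of at most 3 mismatches.

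RNASE7, an antimicrobial ribonuclease of the skin, had a member (chr14:21041750-21042346) 122 bp upstream of its canonical TSS with a pileup of 35 reads, a fold enrichment of 7.81 and −log10 q 20.4, and its site of 2 mismatches lay inside it. CLCA2, a chloride channel accessory gene, had a member 121 bp upstream with a pileup of 20 reads, a fold enrichment of 8.17 and a site of 3 mismatches. PTCHD4, a patched-domain gene, had its site next to the canonical TSS: the 20 bases, at chr6:48111198-48111217 and without a mismatch, lay directly upstream of the TSS at 48111197 on the minus strand. The member there had a pileup of 25 reads, a fold enrichment of 11.2 and −log10 q 21.3, and the nearest CTR peak was 24124 bp away.

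The other members at canonical TSSs were of mixed kinds. The strongest was BBOX1, the last enzyme of carnitine synthesis, with a summit 483 bp upstream, a pileup of 53 reads and a −log10 q of 47.9. TMEM40 followed with a −log10 q of 42.3 and RP1L1, a photoreceptor gene, with 37.2. APOBEC3H, a cytidine deaminase of antiviral defence, had a summit 49 bp downstream, a fold enrichment of 13.2 and a site of 2 mismatches. LTB4R2, a leukotriene B4 receptor, had a fold enrichment of 7.92 and a site of 3 mismatches. Genes of other lineages were also present, such as MYL7 (atrial myosin light chain, fold enrichment 12.3), TREML1 (a platelet receptor, 9.99) and BLNK (a B cell adaptor, 9.81), none with a site of at most 3 mismatches. The weakest was INPPL1, an inositol phosphatase, with a −log10 q of 10.1 and a GC content of 80.6%.

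Of 40 listed keratinocyte and epidermal genes, 5 had a member (12.5%, 5.46 to 26.1%), beside 5.37% of all protein-coding genes. With a −log10 q of 20 or more 1 was left, and with a summit within 1 kb 2. Among the 5 were KRT5 and KRT17, keratins of basal and activated keratinocytes, TGM1, the main transglutaminase of the cornified envelope, and SPRR1A, a precursor of that envelope. KRT5 had its member (chr12:52522456-52523022) 2419 bp upstream of a TSS, with a pileup of 49 reads, a fold enrichment of 5.42 and −log10 q 19.7. KRT17 had a pair of members, at an internal TSS (fold enrichment 6.97, −log10 q 17.6, 3 mismatches) and outside the gene, 982 bp upstream of a TSS (5.98, 13.2). SPRR1A had a fold enrichment of 9.68 and TGM1 of 7.58, each without a site of at most 3 mismatches. The canonical TSS of each of these named genes had a peak at the threshold in neither list. No member lay at TP63 or KLF4, the expressed genes, or at KRT14 or DSP, which the study examined as targets. The study measured the mRNA of KRT14 and DSP in other dermal fibroblasts and after a longer expression of p63. Regions beyond 3 kb of a TSS, or with any CTR peak, are also outside the rule.

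Of 40 listed fibroblast and mesenchymal genes 6 had a member (15%, 7.06 to 29.1%): TNC with 3 members, ZEB1, TCF4, LOXL2, SPARC and MMP2. The listed fibroblast genes had a median of 9 annotated TSS positions and the keratinocyte genes 5. TNC, the matrix protein tenascin C, had fold enrichments of 10.9, 9.01 and 6.88, of which the first and the last had a site of 3 mismatches. ZEB1 and TCF4, transcription factors of mesenchymal cells, had fold enrichments of 7.99 and 5.85 and no site. The intervals of the keratinocyte and fibroblast lists overlap, and no test between lists was run.

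No list was tested against the 5.37% of all protein-coding genes, and that share itself rose with the number of annotated TSS positions. Of 35 epithelial adhesion and transcription factor genes, 1 had a member (RAB25, a GTPase of epithelial recycling, fold enrichment 5.95). Of 41 p53-family target genes, 1 had a member (XPC, a DNA repair gene, fold enrichment 12, −log10 q 30). That member lay 1675 bp upstream of a TSS of XPC and nearer, at 740 bp, to a TSS of the long non-coding RNA XPC-AS1. Targets that were not listed are not counted. STMN2 was the only gene with a member among 20 neuronal genes, ITGAM and TAL1 were found among 20 blood cell genes, and none of 12 melanocyte genes had a member. ITGAM, an integrin of myeloid cells, carried a site without a mismatch at an internal TSS, with a pileup of 25 reads, a fold enrichment of 10.7 and −log10 q 20.5.

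**Figure D5:**
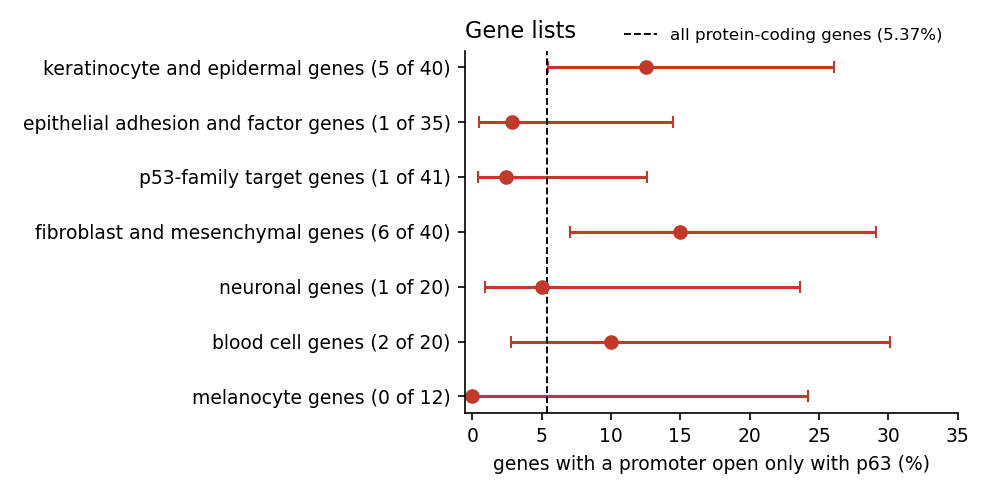
Share of listed genes with a promoter open only with p63, in percent, with 95% Wilson intervals, beside the share of all protein-coding genes (dashed, 5.37%). The keratinocyte list sits at 12.5% and the fibroblast list at 15%, with overlapping intervals.

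TP73 (ENSG00000078900.15), which encodes the p53-family member p73, had the most members of any protein-coding gene, 4 regions, all in introns and near internal TSSs, and its canonical TSS had a peak at the threshold in neither list. The strongest, at chr1:3698887-3699649, lay 1074 bp downstream of a TSS with a pileup of 66 reads, a fold enrichment of 9.13 and −log10 q 40.4. The second, at chr1:3727259-3727515, lay 129 bp upstream of a TSS with a pileup of 28 reads and a fold enrichment of 6.59. The others, at chr1:3688556-3689070 and chr1:3680825-3681406, had 28 and 21 reads and fold enrichments of 5 and 5.86. Only the last had a site of at most 3 mismatches. Protein-coding genes with 3 members were MACF1, TNC, TNS1, RGS3, EPN2, SYNPO, CHD3 and SEMA4D. Of these, TNS1 (tensin 1), MACF1 and SYNPO encode proteins that link to actin, a remark made after the genes were seen and not tested. Genes with more annotated TSS positions had members more often, and the counts for TP73 and these genes were not adjusted for that. Members shared a neighbourhood with other p63-only regions in 696 cases (40%), with another within 50 kb and at most 5. No such share is given for other regions, so the 40% does not show clustering.

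The highest −log10 q among the members belonged to a region in an intron of TMEM138 (chr11:61369549-61370192), a gene of the primary cilium, with a pileup of 79 reads, a fold enrichment of 16.3 and −log10 q 69.3. CELA1, an elastase gene that is expressed in skin, was second among members at protein-coding genes, with 80 reads, 14.9 and 66.5, in a region (chr12:51348926-51349517) 2599 bp upstream of its canonical TSS. NDUFAF5 had 61 reads, a fold enrichment of 18.3 and −log10 q 59.5. The list went on with STAT6, a factor of interleukin 4 signalling (58.5), RIN3 (58.3), CPT1A, the carnitine palmitoyltransferase of the mitochondrial outer membrane (53.4), C17orf99 (52.8) and FAM193B (52.3). IGFBP2, an insulin-like growth factor binding protein, had 58 reads, a fold enrichment of 15.4, −log10 q 51.2 and a site of 1 mismatch, 107 bp upstream of an internal TSS.

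GREB1, DNAJB6, ALS2CL, BBOX1, MACROH2A1, ADGRA3, TFIP11, TEX45, SS18L1, ARFGAP3 and SLC25A21 completed the 20 genes with the highest values, from 48.9 for GREB1 to 44.6 for SLC25A21. Sites of 3 mismatches were present at DNAJB6, ALS2CL, ADGRA3, TFIP11 and ARFGAP3, and a site of 2 at TEX45. RALGAPA2, a subunit of a Ral GTPase-activating complex with a site of 0 mismatches, had 42 reads, a fold enrichment of 17.1 and −log10 q 42.6. ARID1B, a subunit of the BAF chromatin remodelling complex, had a site of 0 mismatches in a member whose summit lay 71 bp upstream of an internal TSS, a pileup of 22 reads and a fold enrichment of 10.5.

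The members that follow lay at genes on no list and were picked by hand from all 1740 after their values were seen, so they describe no group of genes. IL1F10, an interleukin 1 family cytokine of skin, had a pileup of 65 reads, a fold enrichment of 10.5 and −log10 q 44. TGM5, a transglutaminase of the cornified envelope, had 8.75 and 27.3, and C1orf68, a gene of the epidermal differentiation complex, had a fold enrichment of 12.2, −log10 q 25.9 and a site of 3 mismatches, and the summit lay 1064 bp upstream of its canonical TSS. TMPRSS4, a membrane serine protease of epithelia, had a fold enrichment of 8.85 with a site of 1 mismatch. LGALS7, which encodes the keratinocyte lectin galectin 7, had 8.45 with a site of 2, and its near-identical copy LGALS7B had 7.11, so that the division of reads between the copies is uncertain. KRTDAP, SDR9C7 and EXPH5 had fold enrichments of 6.44, 6.68 and 7.99. The members at IL1F10, TGM5, LGALS7B, KRTDAP, SDR9C7 and EXPH5 had no site of at most 3 mismatches. At TPRG1, the neighbour of TP63, a member lay 57 bp upstream of an internal TSS with a fold enrichment of 8.61 and a site of 3 mismatches.

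MIR205 encodes miR-205, an epithelial microRNA, and a member with a pileup of 25 reads, a fold enrichment of 6.58 and −log10 q 13.2 lay 1046 bp upstream of its annotated start, which is the start of the hairpin and not of the primary transcript. The best site there had 6 mismatches. The mature RNA is given from RefSeq (GRCh38.p14), at chr1:209432166-209432187 on the plus strand, with the seed (bases 2 to 8) in capitals.
hsa-miR-205-5p: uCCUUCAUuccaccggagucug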

How the data were processed

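ATAC-seq was performed in 4 samples of BJ fibroblasts, 2 expressing KLF4 (CTR) and 2 expressing ΔNp63α and KLF4 (p63). Per the labels and the study's methods, the authors mapped reads to hg38 with Bowtie2 2.3.4.3 and called peaks with MACS2 on both replicates of a group. The deposited lists give per peak a fold enrichment (ratio), a −log10 p and a −log10 q (p-value and q-value), a score and the summit offset. The MACS2 version and options, read shifting and duplicate removal were not given in the sources used here, and library depth is unknown.

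Peaks were annotated with GENCODE release 44 in Python 3.11.15 (pandas 2.3.3, pysam 0.24.0), with all transcripts as TSSs. An overlap was 1 bp, the motif window 201 bp, and the background windows lay 2 kb away. Promoters open in both had a CTR peak with a −log10 q of 10 or more. Pileups were solved from the deposited ratio and −log10 p. The p63 site scan, the overlaps, the gaps between peaks and the pileup solution were tested on simulated data, and the CTCF scan on set strings. TSS distances, the other motifs, gene assignment and weighting had no such test. No p-value was computed, because regions of 1 list are not replicates.

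Named were the 20 members with the highest −log10 q at protein-coding genes, members with 0 mismatches, members at TP63, KLF4, KRT14 or DSP, listed genes with a member, genes with 3 or more members and members next to a threshold; exceptions are stated. The members, the 7 gene lists and the motifs were chosen with earlier results of these data known. All listed symbols were found, loricrin under its current symbol, and 1 counted gene is not reported here by name.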

Additional observations from a re-analysis of the deposited data

How the results depend on the processing

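Of 73 alternatives, 45 changed a value by less than its counting interval or a count by less than 1.5 times. With a −log10 q of 20 or more, 492 promoters were selected, the site share was 25.6%, its difference from promoters open in both 24.3 points, the share of genes with an open canonical TSS in both lists 52.9%, the ratio to CTR-only promoters 25.9 (main 4.3) and the keratinocyte genes 1. When CTR peaks below the threshold were ignored, these were 3862, 10.4%, 9.2 points, 51.1% and a ratio of 1.69, with 32% of summits within 500 bp and a GC content of 52.2%. A promoter window of 1 kb gave 686 promoters, 60.6% within 500 bp, 52.2% GC and 2 keratinocyte genes. With basic transcripts alone there were 1116 promoters, 21% within 500 bp, 37.6% with a protein-coding nearest TSS, 41.6% with an open canonical TSS and 3 keratinocyte genes. The site share and its difference were 7.01% and 6.76 points with at most 2 mismatches, 34.3% and 30.4 points with at most 4, and 12.4% and 11.8 points with a window of 50 bp. The cause of these shifts was not tested where the alternative does not itself change what is counted. Library depth is unknown, so a region absent from the CTR list may be below its detection limit. Leaving out a replicate could not be run, since the lists pool the replicates. No paired analysis was possible because each deposited list pools both replicates of its group.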
